A study of Caenorhabditis elegans with 2 samples.

Results

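The data describe where the tagged T-box factor TBX-8 was found inside genes for non-coding RNA in embryos of the nematode Caenorhabditis elegans. The regions taken had their summit, the deposited position of highest signal, inside a gene that Ensembl release 115 classes as ncRNA, lincRNA or antisense_RNA. They also had to lie more than 200 bp from any tRNA, snRNA, snoRNA, rRNA or miRNA gene. Of the 16355 regions called on both replicates together, 555 met the rule and are called members below. Their summits fell in 631 different genes of the 8058 in these 3 classes, since at 109 members the summit lay inside 2 or more such genes. By the shortest gene at the summit, 481 members were in ncRNA genes, 55 in lincRNA genes and 19 in antisense_RNA genes. A further 128 regions inside these classes were left out because a small RNA gene lay within 200 bp.

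The assay was ChIP-seq, the sequencing of DNA pulled down with a protein, in strain RW10470. This strain carries tbx-8 fused to TY1, EGFP and 3xFLAG, together with unc-119(+) in unc-119(ed3) animals. An antibody to GFP pulled down the tagged protein from embryos, taken whole, of mixed stages and mixed sex, aged 2.5 hours and collected by bleaching of eggs, and the chromatin was sonicated to 200 to 800 bp. There were 2 biological replicates in 1 group, so the design holds no contrast between conditions and every comparison below is between sets of regions, as a description with no test. Whole embryos mix all cell types, so no signal can be assigned to one of them. Depth is unknown, as the lists hold no read counts. Signal is the authors' own measure of the strength of a region; it is not defined in the sources used here and not scaled between lists. Values of the replicates are set side by side below, but a gap between them can come from the scale of each list, so their ranks are the safer guide.

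T-box factors bind DNA through a conserved domain that prefers sites with the core GGTGTG, and TBX-8 acts together with its close relative TBX-9 in shaping the embryo. The annotation classes used here are a mixed group. The plain class ncRNA holds many short transcripts with no known function and also a few well-known RNAs. Among these are the RNA of RNase P, which trims the leaders of tRNA precursors, the RNA of RNase MRP, which cuts the precursor of ribosomal RNA, and the RNA of the signal recognition particle (SRP), which takes ribosomes to the endoplasmic reticulum. In animals these 3 RNAs are made by RNA polymerase III, the enzyme that also makes tRNAs. Long intergenic RNAs (lincRNA) lie between protein-coding genes, and antisense RNAs run against a protein-coding gene.

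The sequences below are the windows of 100 bp on either side of the summit for 6 of the 9 highest members, and for a high member on the opposite strand of a protein-coding gene (srpr-2.2) and on the same strand as one (C44H4.11). They are shown to set the start of each gene against the summit, which is the middle base. They come from the RefSeq copy of WBcel235 (ce11), read 5′ to 3′ on the strand of the ncRNA gene, and capitals mark the bases that lie inside that gene.
F52D10.7 (chrX:11605826-11606026, minus strand): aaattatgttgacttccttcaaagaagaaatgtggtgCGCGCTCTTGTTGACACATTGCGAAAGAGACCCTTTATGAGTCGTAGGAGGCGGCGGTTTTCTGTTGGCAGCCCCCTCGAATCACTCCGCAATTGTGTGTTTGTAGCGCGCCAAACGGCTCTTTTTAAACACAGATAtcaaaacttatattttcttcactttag
C14F11.14 (chrX:6207756-6207956, plus strand): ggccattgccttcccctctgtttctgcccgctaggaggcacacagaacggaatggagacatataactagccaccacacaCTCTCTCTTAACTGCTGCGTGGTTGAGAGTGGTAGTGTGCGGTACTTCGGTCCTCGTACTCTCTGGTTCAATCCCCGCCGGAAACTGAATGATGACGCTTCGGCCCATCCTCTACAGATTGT
mrpr-1 (chrII:7200150-7200350, plus strand): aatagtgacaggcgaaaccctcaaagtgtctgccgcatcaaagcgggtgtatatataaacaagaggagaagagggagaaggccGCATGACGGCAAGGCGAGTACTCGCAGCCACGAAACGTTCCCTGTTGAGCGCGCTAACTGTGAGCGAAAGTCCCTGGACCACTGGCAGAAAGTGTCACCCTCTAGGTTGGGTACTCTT
W01D2.9 (chrII:14804710-14804910, plus strand): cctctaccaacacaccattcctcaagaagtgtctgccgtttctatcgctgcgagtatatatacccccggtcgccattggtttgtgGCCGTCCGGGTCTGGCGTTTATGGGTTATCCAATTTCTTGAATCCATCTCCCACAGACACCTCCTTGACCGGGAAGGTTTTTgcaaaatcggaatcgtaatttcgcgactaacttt
T28D6.13 (chrIII:11371363-11371563, plus strand): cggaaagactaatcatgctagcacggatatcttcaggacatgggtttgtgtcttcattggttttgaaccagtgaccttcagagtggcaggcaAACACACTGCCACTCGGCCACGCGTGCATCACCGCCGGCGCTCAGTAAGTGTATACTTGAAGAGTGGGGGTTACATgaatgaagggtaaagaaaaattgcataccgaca
K10H10.14 (chrII:14496947-14497147, plus strand): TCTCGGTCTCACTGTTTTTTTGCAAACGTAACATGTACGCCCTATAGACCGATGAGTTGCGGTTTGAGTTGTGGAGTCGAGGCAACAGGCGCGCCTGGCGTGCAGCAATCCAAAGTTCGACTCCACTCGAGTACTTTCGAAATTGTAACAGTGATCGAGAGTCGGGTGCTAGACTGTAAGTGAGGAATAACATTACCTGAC
srpr-2.2 (chrIII:5031607-5031807, minus strand): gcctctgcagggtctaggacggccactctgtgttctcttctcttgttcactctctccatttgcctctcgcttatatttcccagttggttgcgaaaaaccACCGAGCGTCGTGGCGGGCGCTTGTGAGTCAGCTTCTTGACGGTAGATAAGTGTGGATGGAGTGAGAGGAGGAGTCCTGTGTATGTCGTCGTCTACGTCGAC
C44H4.11 (chrX:14577763-14577963, minus strand): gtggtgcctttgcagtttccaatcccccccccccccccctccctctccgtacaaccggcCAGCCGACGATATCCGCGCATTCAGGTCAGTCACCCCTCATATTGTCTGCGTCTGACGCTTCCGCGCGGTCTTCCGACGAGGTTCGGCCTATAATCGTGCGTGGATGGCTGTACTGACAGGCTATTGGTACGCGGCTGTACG

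Capitals begin near the middle of the mrpr-1, W01D2.9, T28D6.13, C14F11.14 and srpr-2.2 windows, where the gene starts close to the summit. The whole K10H10.14 window lies inside its gene.

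Members stood higher in the signal order than the list they came from. The median signal was 37.9 for members (quartiles 31.4 to 47.8, range 27.5 to 414) and 34.6 for all pooled regions. The 4088 highest pooled regions (25% of the list) held 215 of the 555 members (38.7%). The authors' thresholded list, left after the step that scores how well replicates agree, held 32 members. That is 5.77% (95% Wilson interval 4.11 to 8.03, counting error only), against 3.19% of all pooled regions. The thresholded list holds 321 regions away from small RNA genes, so the background under the same distance rule is 2.03% of 15795 pooled regions. The other regions away from small RNA genes were thresholded at 1.90% (1.69 to 2.13), below the interval of the members. Of those other regions, the ones in introns of protein-coding genes were thresholded at 1.11%, those in exons at 0.446% and those between protein-coding genes at 3.62%. At q below 0.05 the members numbered 55 (9.91%), against 5.39% of all pooled regions and 4.03% of those away from small RNA genes.

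The share of members grew toward the top of the list. Of the 35 regions away from small RNA genes among the 100 highest, 9 were members (25.7%, 14.2 to 42.1). The share was 8.04% (23 of 286) in the rest of the 521 highest and 7.78% (33 of 424) at ranks 522 to 1000. At ranks 8001 to 16355 it was 2.73% (225 of 8245). All 3 classes of ncRNA gene together cover 1.42 Mb, and members lay there at 391 per Mb, against 163 pooled regions per Mb of the nuclear chromosomes. Members leave out regions within 200 bp of a small RNA gene, while the 1.42 Mb and the 163 per Mb do not. With those regions kept, pooled regions inside these genes lay at 481 per Mb. Thresholded members lay at 22.5 per Mb of these genes, and all thresholded regions at 5.20 per Mb of the chromosomes.

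**Figure D1:**
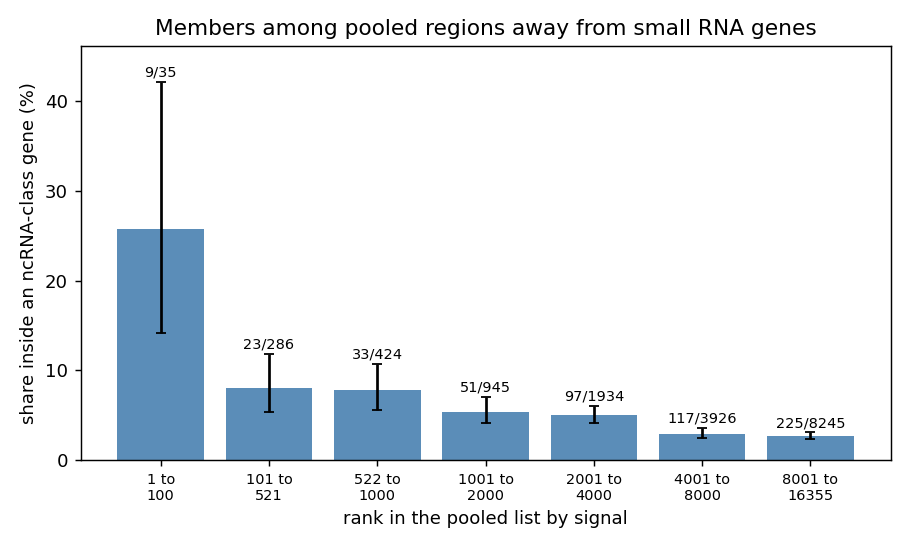
Share of pooled regions away from small RNA genes whose summit lies inside an ncRNA, lincRNA or antisense_RNA gene, by rank in the pooled list. Bars give the percent, lines the 95% Wilson intervals, and the numbers above them the members and the regions. The share is highest in the first 100 ranks (25.7%) and lowest at ranks 8001 to 16355 (2.73%).

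Both replicates carried the high members. A region with its summit within 100 bp was found for 395 members (71.2%) in replicate 1 and for 326 (58.7%) in replicate 2. For all pooled regions these shares were 66.2% and 55.5%. Both lists held 200 members (36%), against 30.5% of all pooled regions. Of the 32 thresholded members, 29 were found in both lists (90.6%), and all 32 overlapped a region of each. Of all 521 thresholded regions, 94.6% were found in both lists and 99.8% overlapped a region of each. The thresholded list was left after scoring how well replicates agree, so such matches are built into it. The 20 members among the 521 highest regions of both replicate lists made up 3.60% of the members, against 1.80% of all pooled regions and 0.943% of those away from small RNA genes. Across the 200 members found in both lists, log2 signal in one replicate went with that in the other (Pearson's r 0.66, Spearman's rho 0.42), as a description over regions that share the same libraries. The same values over 4987 pooled regions were 0.66 and 0.39.

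**Figure D2:**
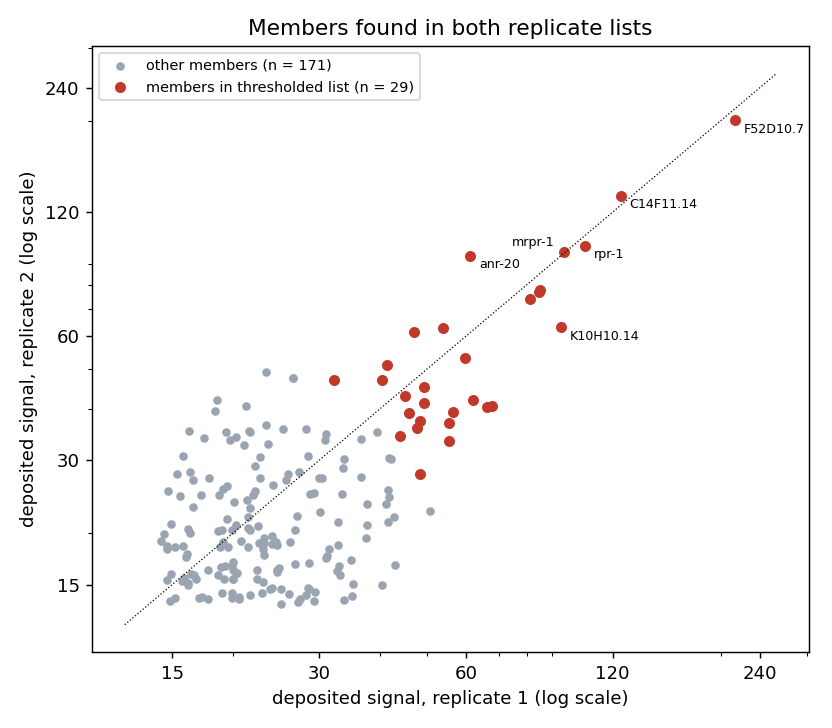
Deposited signal of members found in both replicate lists, replicate 1 on the x axis and replicate 2 on the y axis, both on log scales. Red points are the 29 members in the thresholded list and grey points the other 171, and the dotted line marks equal values, which need not be equal binding since the lists are not scaled to each other. F52D10.7 and C14F11.14 stand apart at the top in both replicates, anr-20 (at the same summit as F16A11.7) lies above the line and K10H10.14 below it.

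The highest member lay in F52D10.7, a gene of 137 bp on X with no named function, 507 bp upstream of the start of ftt-2, which encodes a 14-3-3 protein. Its signal was 414 in the pooled list, 214 in replicate 1 and 200.2 in replicate 2, with ranks of 5, 5 and 4. C14F11.14 (X, 147 bp) followed at rank 18, 169 bp upstream of T13C5.6, with a pooled signal of 258 and replicate signals of 125 and 131. These were the highest members in both replicates as well. The F52D10.7 window held none of the 10 sequence words searched, and 0% of it is repeated elsewhere in the genome.

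The next members lay at the start of known structural RNAs, so the members are not all unclassified transcripts, although the annotation gives these genes the plain class ncRNA. In rpr-1, the RNase P RNA (I, 13463955 to 13464207, plus strand, inside an intron of the Integrator subunit gene ints-8 on the opposite strand), the summit was 13 bp from the 5′ end. Its signal was 201.5 in the pooled list (rank 41), 105 in replicate 1 and 99.5 in replicate 2. In mrpr-1, the RNase MRP RNA (II, 7200233 to 7200418, plus strand, between protein-coding genes), the summit was 17 bp from the 5′ end. Its signal was 192 in the pooled list (rank 49), 95.3 in replicate 1 and 96.2 in replicate 2. Both replicates thus placed the 2 genes among their 62 highest regions. A second member lay at 226 bp in rpr-1, far lower, with a signal of 51.1 (rank 1803).

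The 5 annotated copies of the SRP RNA gene gave a spread of signals. srpr-2.2, in an intron of the kinesin gene klp-6 on the opposite strand, was highest at 116 (rank 183), with 59.9 in replicate 1 and 53.1 in replicate 2. Its summit was 1 bp from its 5′ end, in a window whose bases also belong to the shorter gene R144.16. srpr-2.1 followed at 77.3 (rank 490), with its summit 288 bp from the 5′ end, near the other end of the gene. srpr-1.2 stood at 72.6 (rank 594) and fell outside the thresholded list. For srpr-1.1 the thresholded region (89.4, rank 344) peaked 22 bp outside the gene and so is not a member, while a member inside it stood at 31.7. The nearest region to srpr-3 was 212 bp outside it, at 35.6. Outside srpr-2.2, srpr-2.1 and srpr-1.2, these copies were named after their values were seen. The first 4 copies are 94.0% to 99% identical in sequence and srpr-3 is 81.7% to 82.7% identical to them, so reads may be shared between copies. Of the window at srpr-1.2, 78.3% of its words of 36 bases occur elsewhere in the genome, and of the window at srpr-2.2, 39.8%. How reads with several matches were handled is not given in the sources used here.

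Other known RNAs gave little. No region lay within 1000 bp of yrn-1, the Y RNA, or of tts-1, a long RNA abundant in long-lived worms. The nearest region to rncs-1, a structured RNA that binds Dicer, was 688 bp away at 47.5. Among RNAs named in the same way, linc-128 and anr-20 were the only lincRNA or anr- genes with a thresholded member. linc-128 (V, 2302 bp) had a signal of 102 (rank 258), with 49.3 in replicate 1 and 41.5 in replicate 2, and the nearest protein-coding start, that of the calmodulin gene cmd-1, was 4736 bp away. The next lincRNA members were linc-91 at 61.1 and linc-87 at 60.2. anr-20 shares its summit with F16A11.7 in an intron of ppfr-1, which encodes a regulatory subunit of protein phosphatase 4. That member stood at 179 in the pooled list (rank 66), with 61.2 in replicate 1 and 94.1 in replicate 2, and its ranks in the replicates were 214 and 48. Its window is repeated elsewhere over 59.0% of its words.

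W01D2.9 (II, 82 bp) has no named function, and its summit was 15 bp from its 5′ end. Its signal was 163 in the pooled list (rank 88), 85.3 in replicate 1 and 77.6 in replicate 2. Reading the windows of the high members showed a word, GTGTCNGCC, shared by rpr-1, mrpr-1 and W01D2.9 and followed by TATATA. In vertebrates the genes of RNase P and MRP RNA are driven by an element upstream of the start followed by a TATA box. The word began 56, 58 and 57 bp upstream of the annotated 5′ end of rpr-1, mrpr-1 and W01D2.9, and TATATA began at 30, 34 and 31 bp. Of the 7543 ncRNA-class genes away from small RNA genes, 12 (0.159%) held the word on their own strand within 80 bp upstream, and these 3 were the ones with TATATA after it. Another of the 12, lfor-1, held a member of signal 58.5 (rank 1106), while its near copy lfor-2 and the other 7 held none. In the windows around summits, on either strand, the word was in 10 members (1.80%) and in 0.795% of pooled regions. As it was read from these same windows, its counts only describe them. The 80 bases before the 5′ end of 3 of these genes are shown with the word, and TATATA where it follows, in capitals.
mrpr-1 (chrII:7200153-7200232, plus strand): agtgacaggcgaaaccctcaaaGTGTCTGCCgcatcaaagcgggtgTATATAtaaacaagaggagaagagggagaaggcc
W01D2.9 (chrII:14804715-14804794, plus strand): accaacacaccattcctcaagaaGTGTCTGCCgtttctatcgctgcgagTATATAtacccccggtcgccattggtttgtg
lfor-1 (chrII:14636094-14636173, minus strand): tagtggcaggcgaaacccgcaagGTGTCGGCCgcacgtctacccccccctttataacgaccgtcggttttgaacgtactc

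The word starts at nearly the same distance in each, and lfor-1 has a run of c followed by tttataa where the other genes have TATATA.

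Another 5 thresholded members held a loose form of the B box of tRNA genes, and 2 of them a word of the A box too, although no annotated tRNA gene lay within 200 bp. tRNA genes carry their promoter inside the gene, as an A box near the start and a B box further on. The B box core searched for, GTTCGANNC, was in 14 members (2.52%, 1.51 to 4.19), in 2.97% of pooled regions and in 1.78% of those away from small RNA genes. It was in 2 of the 32 thresholded members (6.25%, 1.73 to 20.1) and in 2.18% of the 321 thresholded regions away from small RNA genes. A looser word, GTTCNANNC, and a word of the A box, TGGNNGAGT, were added after the windows were read, and both strands were searched. As these 2 words were chosen from the windows of high members, their counts there only describe them. The looser word contains the core. It was in 33 members (5.95%), in 8.42% of all pooled regions, in 6.93% of those away from small RNA genes and in 72.7% of the 337 regions nearest a tRNA gene. The A box word was in 10 members (1.80%), 2.42% of pooled regions, 2.30% of those away from small RNA genes and 5.34% of those near tRNA genes. Of the 32 thresholded members, 5 held the looser B box word and 2 held both words, at ZK816.8 with ZK816.9 and at T28D6.13 with T28D6.15. Of the 321 thresholded regions away from small RNA genes, which include the thresholded members, 16 (4.98%) held the looser word and 12 (3.74%) the A box word. Both words together were in 3 members (0.541%), in 26 of the 15240 other regions away from small RNA genes (0.171%) and in 16 of the 337 near tRNA genes (4.75%). The stretches around the B box word are shown for the 4 highest of these 5 members, on the strand that reads it, with the B box word in capitals and, where present, the A box word in capitals before it.
ZK816.9 (chrX:3348033-3348115, plus strand): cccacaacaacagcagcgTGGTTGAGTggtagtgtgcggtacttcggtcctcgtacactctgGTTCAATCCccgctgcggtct
T28D6.15 (chrIII:11371410-11371492, minus strand): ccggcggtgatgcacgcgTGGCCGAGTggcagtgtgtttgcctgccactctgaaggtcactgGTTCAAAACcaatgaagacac
C14F11.14 (chrX:6207838-6207920, plus strand): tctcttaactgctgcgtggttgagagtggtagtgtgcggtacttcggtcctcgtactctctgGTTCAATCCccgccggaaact
K10H10.14 (chrII:14496999-14497081, plus strand): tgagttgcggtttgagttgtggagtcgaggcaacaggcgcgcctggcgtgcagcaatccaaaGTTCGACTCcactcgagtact

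Both A box words stood 35 bases before the B box word. C14F11.14 and ZK816.9 share a stretch of sequence: 58 of 83 positions (69.9%) were identical without gaps. T28D6.15 (III, inside an intron of the alpha-tubulin gene tba-7) had a signal of 161 (rank 91), with 81.4 in replicate 1 and 73.8 in replicate 2. K10H10.14 (II, 979 bp upstream of dhs-8, a short-chain dehydrogenase gene) had 157 (rank 100), with 93.9 and 63.2. ZK816.9 (X, 57 bp) had 92.4 (rank 320), with 41.4 in replicate 1 and 51.2 in replicate 2. The other thresholded member with the looser word was C18B12.9 (X), at 84.1. No gene at these members is annotated as a tRNA, and a match is not a site of transcription or of binding.

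Summits of members had no common place along their genes. The 5′, middle and 3′ parts of equal length held 196, 165 and 194 members, and 12, 7 and 13 of the thresholded ones. The median distance from the 5′ end was 94 bp for all members and 98.5 bp for thresholded members. Under 40 bp from the 5′ end lay 13 of 32 thresholded members (40.6%) and 123 of 555 members (22.2%), at a distance chosen after the values were seen. The genes are short, with a median of 187 bp at thresholded members and 188 bp at all members, and the summits of all members had a median position 52.6% of the way along the gene. All 32 thresholded members and 524 of all members (94.4%) were in an exon of the ncRNA gene.

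**Figure D3:**
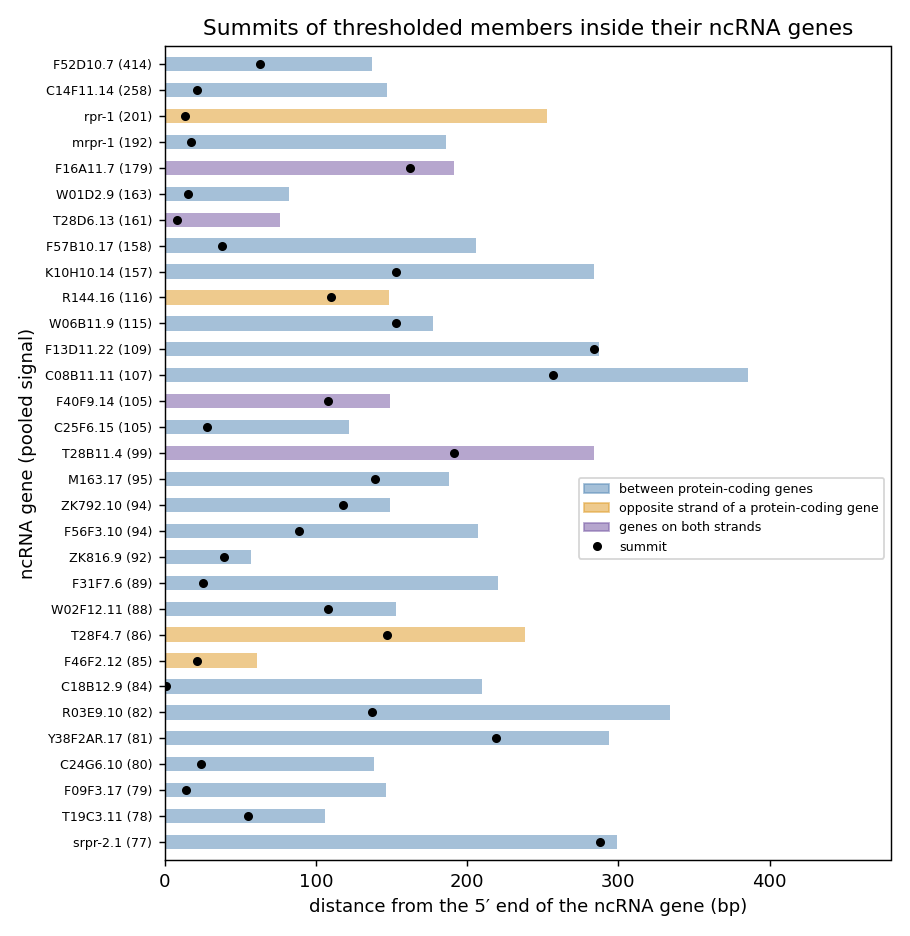
Position of the summit (black point) within the shortest ncRNA gene at each thresholded member, in bp from its 5′ end. Bars are the genes, coloured by place and ordered by pooled signal (in brackets after the name). linc-128, of 2302 bp, is left out, so 31 of 32 are shown. Summits lie close to the left edge for rpr-1, mrpr-1, W01D2.9 and T28D6.13, and toward the right for F13D11.22 and srpr-2.1.

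Most members lay between protein-coding genes. There were 359 of these (64.7%), while 112 (20.2%) lay in a protein-coding gene on the opposite strand, 47 (8.47%) in one on the same strand, and 37 (6.67%) in one with genes on both strands at the summit. Those 196 inside protein-coding genes were in introns at 162 and in exons at 34. In the whole pooled list 39.3% of regions lay between protein-coding genes. Of the 7543 ncRNA-class genes away from small RNA genes, 56.0% lay between by their midpoints, with 64.2% (60.3 to 67.8) of those with a member and 55.3% (54.1 to 56.5) of those without. On the opposite strand of a protein-coding gene were 22.7% (19.6 to 26.2) of genes with a member and 30.3% (29.2 to 31.4) of those without. The thresholded list held 24 of 359 members between genes (6.69%), 4 of 112 on the opposite strand (3.57%), 4 of 37 with both strands (10.8%, 4.29 to 24.7) and 0 of 47 on the same strand. The last has a Wilson upper limit of 7.56%, and 3 counts, the limit that a count of 0 allows, would be 6.38%. The 4 Wilson intervals overlap, and differences between the places were not tested. Median signal was 37.4 between genes, 39.4 on the opposite strand, 35.0 on the same strand and 37.6 with both.

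On the same strand the highest member was in C44H4.11, in an intron of C44H4.4 and 72 bp upstream of let-4, whose product is a protein of the apical extracellular matrix. It stood at 74.8 (rank 546), just under the lowest thresholded signal of 75.8, with 30.8 in replicate 1 and no region within 100 bp in replicate 2. After it came srpr-1.2 (72.6), Y67D8A.7 (59.9), Y105E8A.47 (59.8) and lfor-1 (58.5). On the opposite strand, after rpr-1 and srpr-2.2, came T28F4.7 (85.8), F46F2.12 in the casein kinase gene kin-20 (84.6) and F48C1.15. By the shortest gene at the summit, the last is the highest antisense_RNA member, at 74.9, with 23.4 in replicate 1 (rank 5751) and 49.2 in replicate 2 (rank 248). It lies in let-526, which encodes a subunit of the SWI/SNF complex. Counting every gene at the summit, 1 antisense_RNA gene also held a thresholded member, classed here by a shorter gene. The next antisense_RNA members, K11D9.5 and ZK822.8, stood at 42.3 and 38.9. With genes on both strands, F16A11.7, T28D6.13, F40F9.14 in drap-1 (105) and T28B11.4 (99.2) were thresholded, and C16C2.7 (68.8) was not. The highest member outside the thresholded list was Y65B4BR.10 at 75.4 (rank 532), 234 bp upstream of the ubiquitin ligase gene wwp-1.

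Members did not stand apart from the list in their nearness to starts of protein-coding genes. From 1000 bp upstream to 200 bp downstream of such a start lay 202 members (36.4%, 32.5 to 40.5), against 32.8% of all pooled regions. Within 500 bp on either side of a start the order turned, with 25.8% of members and 29.4% of the list. Of the thresholded members, 19 of 32 (59.4%) lay in the first window, against 206 of the 321 thresholded regions away from small RNA genes (64.2%). Members near a start were thresholded at 9.41% (6.10 to 14.2, 19 of 202) and other regions near a start and away from small RNA genes at 3.73% (3.24 to 4.29, 187 of 5014). Away from starts the shares were 3.68% (2.16 to 6.20, 13 of 353) for members and 0.997% (0.822 to 1.21, 102 of 10226) for the others. The interval of the members lay above that of the other regions in both places. Members away from starts are an alternative added after the data were seen.

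**Figure D4:**
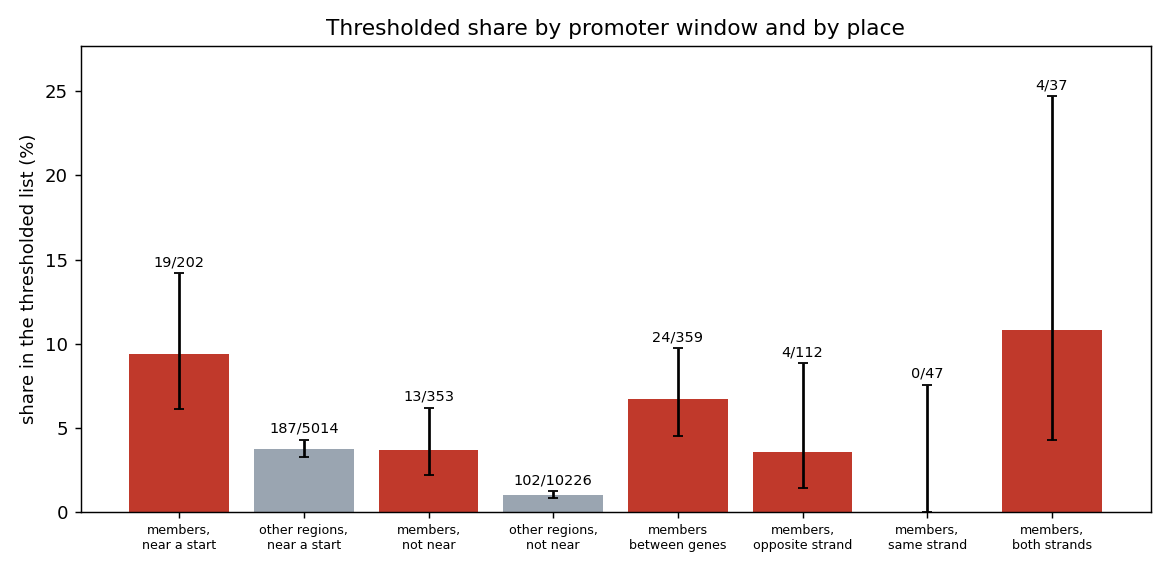
Share of regions in the thresholded list, with 95% Wilson intervals as lines and the counts above them. Red bars are members and grey bars the other pooled regions away from small RNA genes, first by nearness to a protein-coding start and then, for members, by place. Members lie above the other regions near a start (9.41% against 3.73%) and away from one (3.68% against 0.997%), and the 4 places have overlapping intervals.

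Named neighbours of the remaining high members had varied roles. F57B10.17 (158, rank 97, with 84.5 and 76.6 in replicates 1 and 2) began near the trehalase gene tre-1, whose start was 58 bp from the summit. W06B11.9 (115) lay by puf-9, a Pumilio-family RNA-binding protein, C08B11.11 (107) by swsn-7, a chromatin remodelling subunit, and C25F6.15 (105) lay 4203 bp from dlg-1, a scaffold of epithelial junctions. F56F3.10 (93.6) lay 253 bp upstream of the ribosomal protein gene rps-1, with 55.5 in replicate 1 and 36.9 in replicate 2. F13D11.22 (109) and M163.17 (94.9) had no named neighbour, and F31F7.6 (88.9) lay by the kinase gene mrck-1 and W02F12.11 (88.1) by the mitochondrial enzyme gene dlst-1. Among the lowest thresholded members, C24G6.10 (79.9) had its summit 16 bp upstream of the nuclear receptor gene nhr-47. Of gene families by the nearest start within 2000 bp, nuclear receptors had 7 members (1.26%, against 0.764% of pooled regions) and collagens 5 (0.901% against 0.654%). Homeobox genes had 4 (0.721% against 0.281%) and ribosomal protein genes 4 (0.721% against 0.367%). Chemoreceptors had 3 (0.541% against 1.47%), histones 1 (0.18% against 0.208%) and T-box genes 0 (against 0.0306%). The Wilson interval of each of these 7 shares holds the share of the list.

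The 3 thresholded members not found within 100 bp in replicate 1 were ZK792.10 (93.7), Y38F2AR.17 (81.4), which lies 275 bp upstream of the translocon-associated protein gene trap-3, and srpr-2.1. Each overlapped a region of replicate 1, at ranks 345, 748 and 444, so the summits differed in position. F09F3.17 (78.9) had a window repeated elsewhere over 98.8% of its words, with ranks of 382 in replicate 1 and 1604 in replicate 2. R03E9.10 (82.0) and T19C3.11 (78.0) complete the thresholded members. Windows free of repeated words made up 90.3% of members, 78.1% of thresholded members and 85.8% of pooled regions.

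Sequence around the summits was richer in G and C than in the list. The median GC content of the windows was 46.3% for members, 51.0% for thresholded members and 39.3% for all pooled regions. For the 321 thresholded regions away from small RNA genes, which include the thresholded members, the median was 46.3%. The 625 ncRNA genes with a member had a median of 47.3% around their midpoints, and the 6918 without one had 41.3%, so members were richer than their own class of gene too. The part of GC content in the signal was not tested. The T-box core GGTGTG, on either strand, was in 63 members (11.4%, 8.97 to 14.3), in 7 of 32 thresholded members (21.9%, 11.0 to 38.8) and in 6.89% of pooled regions. It was in 10.6% (7.68 to 14.4) of thresholded regions away from small RNA genes, an interval that overlaps that of the thresholded members. Around the midpoints of ncRNA genes it was in 10.9% (8.67 to 13.6) of those with a member and in 8.08% (7.46 to 8.75) of those without. These intervals only just overlap, and the difference was not tested. The full site AGGTGTGA, which contains the core, was in 4 members (0.721%) and in 0.569% of pooled regions, and in 0 of the 32 thresholded members. GAGAGA, a word of GAGA-type elements, was in 185 members (33.3%, 29.5 to 37.4), 14 of 32 thresholded members (43.8%), and 16.3% of pooled regions. It was in 34.6% of the 321 thresholded regions away from small RNA genes, inside the interval of the thresholded members (28.2 to 60.7). Around the midpoints of ncRNA genes it was in 38.6% (34.8 to 42.4) of those with a member and in 22.7% (21.7 to 23.7) of those without. GGGCGG, a word bound by SP1-type factors, was in 11.2% of members and 6.82% of pooled regions. Thresholded members held it at 9.38% and thresholded regions away from small RNA genes at 16.2%. The words rich in A and T went the other way: TATAAA was in 8.65% of members and 17.0% of pooled regions, and TGATAA, a word bound by GATA factors, in 10.1% and 13.4%. Word shares move with base composition, which was not held equal here, and a match is not shown to be a binding site.

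**Figure D5:**
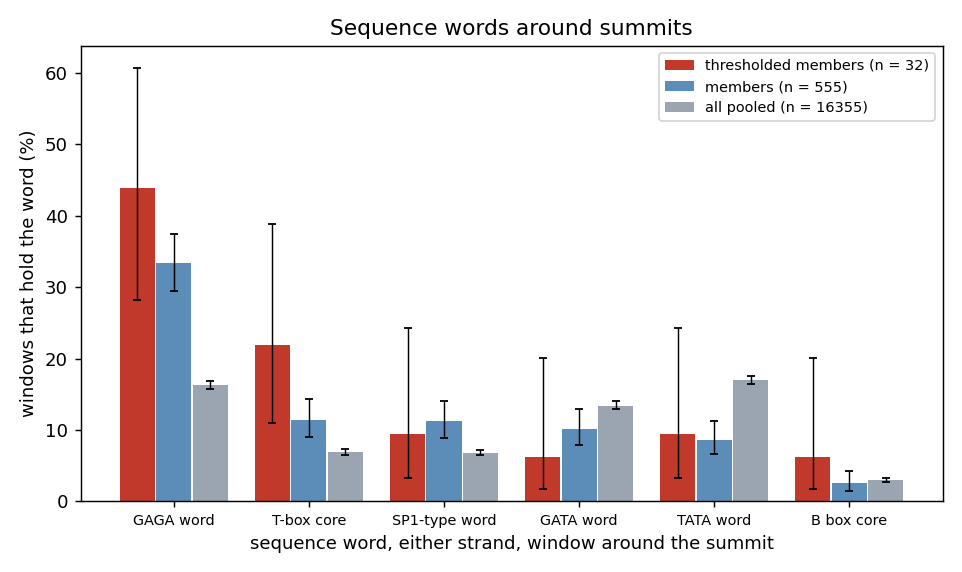
Share of windows, 100 bp on either side of the summit, that hold each sequence word on either strand, for thresholded members (red), all members (blue) and all pooled regions (grey), with 95% Wilson intervals. The GAGA word was in 33.3% of members and 16.3% of pooled regions and the T-box core in 11.4% and 6.89%, while the TATA word was in 8.65% and 17.0%.

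Chromosome X held 169 members (30.5%) and 10 of the 32 thresholded ones. It holds 16.3% of pooled regions but 31.8% of the ncRNA-class genes, and 7.29% of its genes of these classes held a member, within the range of 6.41% (V) to 9.46% (III) over the other chromosomes. Longer genes held members more often: 22.2% of the 194 lincRNA genes (median length 761 bp) and 18.0% of the 100 antisense_RNA genes (689 bp), against 7.34% of the 7764 ncRNA genes (140 bp). Counting every gene at a summit, thresholded members were in 40 ncRNA genes, 1 lincRNA gene and 1 antisense_RNA gene, or 0.515%, 0.515% and 1.00% of each class.

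There were 28 genes with 2 or more members, 13 of them among the 43 lincRNA genes and 13 among the 570 ncRNA genes that held any. C30E1.9 (X, 14770 bp), the longest gene of the 3 classes, held 7, none of them thresholded, with signals from 30.3 to 71.0. F16A11.5 (I, 2454 bp, in ppfr-1 on the opposite strand) held 3, the highest at 74.2. These counts were not scaled by gene length. At the limit of 200 bp from a small RNA gene, the nearest members were in F17C11.21 (213 bp, signal 36.8), Y67D8A.7 (277 bp, 59.9) and C12C8.8 (311 bp, 29.6). The nearest regions left out were in W07G4.10 (175 bp, 37.6), F10C2.11 (169 bp, 32.6) and F39E9.19 (150 bp, 46.5).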

How the data were processed

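ChIP-seq regions of TBX-8 from 2 replicates were taken as deposited. Per the deposited file descriptions, the authors called regions on each replicate and on both together, with a control, and kept 521 in a thresholded list. The signal of each region and its −log10 q-value are the authors' deposited values, on ce11. An aligner, a peak caller and their settings were not given in the sources used here.

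Thresholded regions were exactly the 521 highest of the pooled list. Summits were set against Ensembl release 115 genes of WBcel235, the same assembly, with python 3.11.15, pandas 2.3.3 and biopython 1.88. Regions matched when their summits lay within 100 bp. Where genes overlapped, the shortest was used. Words were searched in 100 bp on either side of the summit, on both strands. A window's repeated share is the share of its words of 36 bases found elsewhere in the genome. Intervals are 95% Wilson intervals and cover counting error only. No tests were run: the 2 replicates form 1 group. The functions were tested on simulated data.

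Members and lists were chosen with earlier results of these data known. Named genes are those of the 25 highest members, of the 5 highest in each place, of the 3 highest lincRNA and antisense_RNA members, of the 3 on either side of the distance limit, genes with 3 or more members, listed known RNAs, and thresholded members missing from a replicate list. The remaining thresholded members were named after their values were seen. Alternatives changed the distance rule, the biotypes, the point of the region, the lists, the matching, the thresholds and the windows.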

Additional observations from a re-analysis of the deposited data

How the results depend on the processing

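Of 86 values recomputed under alternatives for 10 results, 68 kept within the 95% interval of the main value, or within 1.5 times the main count for the number of members, and 18 moved. With no distance rule, 15.8% of members were thresholded, 20.4% had q below 0.05, 44.9% were found in both replicate lists and the median rank was 27.6% of the list, against 5.77%, 9.91%, 36% and 36.1%. This alternative takes back the 128 regions that the distance rule had left out, and 59.4% of them were thresholded. Why these regions stood higher was not tested. Away from protein-coding starts, an alternative added after seeing the data, 353 members stayed, of which 3.68% were thresholded, 6.80% had q below 0.05 and 31.7% were found in both lists. The whole list had 3.19%, 5.39% and 30.5%, each inside the interval of these members (2.16 to 6.2, 4.61 to 9.92 and 27.1 to 36.8). Other regions away from starts and from small RNA genes had 0.997%, 2.42% and 26.8%. Among the 260 highest regions were 2.88% of members and 1.59% of the whole list, and 5.77% and 3.18% had q below 0.01. Matching by overlap found 62.2% of members in both lists, against 53.9% of the whole list, and matching within 50 bp found 23.1% against 19.9%. Within 500 bp of a start lay 25.8% of members and 29.4% of the whole list, so the order of the main window (36.4% and 32.8%) turned. With 50 bp on either side of the summit, GAGAGA was in 20.7% of members, GGTGTG in 6.49%, and median GC was 47.5%. The whole list had 9.29%, 3.78% and 40.6%. Leaving out each replicate gave 8.86% to 13.3% of members with q below 0.05 and median GC of 45.0% to 45.3%. The whole lists used there had 3.93% to 4.03% and 37.8% to 38.8%. The share found in both lists has no value without a replicate. No paired analysis was possible because there is 1 group. Depth is unknown, so its limit on low signals cannot be stated.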
